A study of Mus musculus with 18 samples.

Results

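The 3p arms of 4 mouse microRNA families, miR-297, miR-466, miR-467 and miR-669, were followed from the inner cell mass (ICM) of the blastocyst through outgrowth in culture to embryonic stem cell (ESC) lines. Members were the entries of the deposited table whose name begins with 1 of these family names and ends in -3p. The rule found 31 of the 1390 entries. Several carried identical values in all 18 libraries and were counted once, which left 25 distinct rows.

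Small RNA was sequenced in 18 libraries, 2 for each of 9 groups. The ICM group was freshly isolated by immunosurgery, which removes the trophectoderm, from blastocysts of superovulated NMRI mice at embryonic day 3.5. The outgrowth groups were ICMs cultured for 0.5, 1, 2, 3 or 5 days on gelatin in N2B27 medium with LIF and the 2 inhibitors called R2i, PD0325901 at 1 µM and SB431542 at 10 µM. The ESC libraries, from lines grown in the same medium, form 3 groups coded P2, P4 and P15 in the sample descriptions. The titles of those libraries pair the codes with other passages, so the codes are used as names and no passage order is read. The number of embryos behind a library is not given in the sources used here. Nothing in the labels says that the libraries of a group came from separate embryos or cultures, so the p-values measure the spread between these libraries, which may be technical.

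A microRNA is cut from a hairpin precursor, and either side of the hairpin, the 5p or the 3p arm, can be loaded into an Argonaute protein and guide it to messages that pair with the seed, the bases near its 5′ end. The 4 families are known for a large rodent cluster in an intron of Sfmbt2, a Polycomb-related gene that is expressed from the paternal allele in extraembryonic tissue and is needed for the placenta. Their hairpins are tandem copies of one another, so mature arms of different copies can be identical or nearly so.

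Values are normalized counts that the authors rounded to whole numbers. They summed to 602238 to 1265117 per library. Below 1000 the values of the 10 libraries of ICM to day 3 lie on an even spacing, from which 110756 to 370150 reads per library were estimated. The 8 libraries of day 5 and ESC were deeper, at 2322100 to 9063810 reads if their lowest value also stands for 5 reads. Depth and stage therefore cannot be told apart between these sets of libraries. A common floor of 27.2 normalized counts, worth 5 reads in the shallowest library, was therefore applied as well, with lower values raised to it. Within the shallow set the reads behind a value ranged from 321 to 1223 for miR-466a-3p and from 16.0 to 155 for miR-669a-3p. Such counts carry sampling error beside the spread between libraries.

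In the GENCODE annotation of GRCm38 (mm10), Sfmbt2 lies on the plus strand at chr2:10370510-10595253. It holds 71 microRNA hairpins, all of the 4 families, within 51617 bases at chr2:10466663-10518279. Of the 31 members, 30 could be placed on annotated hairpins and 29 had at least 1 hairpin in Sfmbt2. The 62 hairpins of these 29 all lie in intron 10, counted along 1 annotated transcript of the gene. Copy number differed between members, with 11 hairpins for miR-669a-3p, 10 for miR-467a-3p, 8 for miR-466b-3p and 1 for most others. Both matched hairpins outside Sfmbt2 lie on chromosome 13, Mir466i at chr13:17747473-17747593 and Mir466f-4 at chr13:71107089-71107209. The only annotated hairpin of miR-466i-3p is the former, so that member is not from the Sfmbt2 intron by this annotation. miR-466a-3p was not placed, because its hairpin symbol was not paired with its name.

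**Figure D1:**
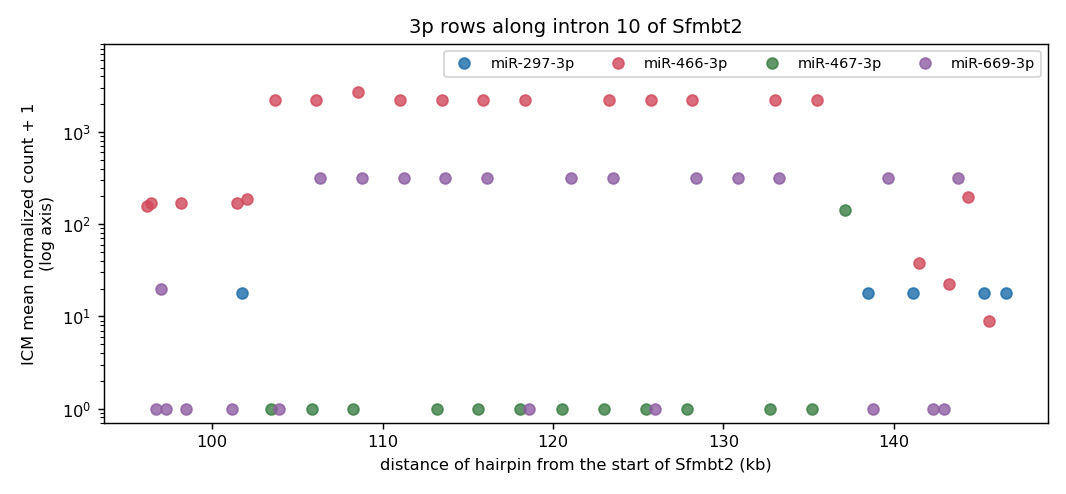
Positions of the hairpins of the placed 3p members along Sfmbt2 (x axis, distance from the start of the gene) against the mean normalized count of the arm in the ICM libraries (y axis, log axis). Copies of one arm share 1 value, a point at 1 marks an arm listed at 0 in both ICM libraries, and all hairpins shown lie in intron 10.

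RefSeq sequences on GRCm38.p6 were matched by name to 1 of the 31 members, miR-466i-3p, and to 3 entries of the families that carry no arm in their name. They are shown because miR-466i-3p is the member with the largest called change among the abundant ones. The others are the only further entries of the families with a sequence here. Their arm is not named, so a difference between arms and one between copies cannot be told apart. Capitals mark the seed, bases 2 to 8 from the 5′ end.
miR-466i-3p: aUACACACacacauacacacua
miR-467f: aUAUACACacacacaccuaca
miR-466k: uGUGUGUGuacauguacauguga
miR-467h: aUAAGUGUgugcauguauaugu
The mature miR-466i-3p lies at chr13:17747552-17747573 on the plus strand, and 19 of its 22 bases are A or C, with an alternating CA run of 11 bases. miR-467f, at chr11:69635419-69635439 on the minus strand, has the same character with a CA run of 12 bases. It was listed at 0 or 1 in every library. miR-466k (chr3:85467396-85467418, plus) and miR-467h (chr9:115381898-115381919, plus) are instead rich in G and U, with GU runs of 9 and 7 bases. The 4 seeds all differ, and the miR-466i-3p seed was shared with 0 of the other entries among the 1166 that had a sequence. The other 3p members had no sequence here, so the search could not find a seed shared among the members.

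Of the 25 distinct rows, 15 had at least 10 normalized counts in at least 2 libraries and were tested. The other 10 never exceeded 21. By family, 9 of 10 distinct rows of miR-466 passed, 4 of 10 of miR-669, 1 of 4 of miR-467 and the single row of miR-297. Over the 18 libraries 5 rows averaged 100 or more, and these are described in turn. In 3 of them several entries share the values: miR-466a-3p with miR-466e-3p, miR-466b-3p with miR-466c-3p and miR-466p-3p, and miR-669a-3p with miR-669o-3p. How the authors assigned reads that fit more than 1 copy is not given in the sources used here, so a shared row cannot be divided among its copies.

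miR-466a-3p and miR-466b-3p were the most abundant members in every library and together held 63.1% to 88.9% of the summed 3p counts. miR-466a-3p was listed at 2529 and 2896 in the ICM libraries, 2119 and 1871 at day 0.5, 2408 and 2069 at day 1, 1714 and 1955 at day 2, 1544 and 1477 at day 3, and 731 and 839 at day 5. In ESC it was listed at 826 and 812 in P2, 285 and 296 in P4, and 338 and 252 in P15. Both ICM libraries lay above all others, and all day 5 and ESC libraries lay below all earlier ones.

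miR-466b-3p was listed at 2175 and 2279 in ICM, 1752 and 1645 at day 0.5, 1911 and 1654 at day 1, 1354 and 1516 at day 2, 1222 and 1136 at day 3, and 570 and 648 at day 5. In ESC it was listed at 663 and 650 in P2, averaged 229 ± 8.49 (SD, n = 2) in P4, and was listed at 268 and 196 in P15. Its order of groups was close to that of miR-466a-3p, and the ratio of the 2 rows stayed between 1.14 and 1.3 in all 18 libraries. Because their reads may be split between near-identical copies, the 2 rows are not independent observations.

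miR-466i-3p, whose hairpin lies on chromosome 13, was listed at 750 and 605 in ICM, 457 and 495 at day 0.5, 203 and 356 at day 1, 83 and 115 at day 2, 91 and 123 at day 3, and 130 and 153 at day 5. In ESC it was listed at 39 and 40 in P2, 17 and 8 in P4, and 37 and 28 in P15. Its values thinned out earlier than those of the rows above: day 2 was already far below day 0.5, and all 6 ESC libraries lay below every earlier library.

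miR-669a-3p, the most abundant 3p arm of the miR-669 family, was listed at 413 and 226 in ICM, 269 and 279 at day 0.5, 180 and 209 at day 1, 73 and 77 at day 2, 102.5 ± 36.1 on average at day 3 (SD, n = 2), and 146 and 117 at day 5. In ESC it was listed at 86 and 86 in P2, 20 and 22 in P4, and 52 and 50 in P15. The ICM libraries differed from each other, and the lower one lay among those of day 0.5 and day 1. ESC P2 lay within the range of day 3 and above both day 2 libraries.

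miR-466o-3p was listed at 207 and 167 in ICM, 270 and 177 at day 0.5, 156 and 129 at day 1, 106 and 94 at day 2, 77 and 58 at day 3, and 65 and 73 at day 5. In ESC it was listed at 78 and 72 in P2, 28 and 28 in P4, and 24 and 18 in P15. Its highest library was at day 0.5, and ESC P2 was level with days 3 and 5.

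**Figure D2:**
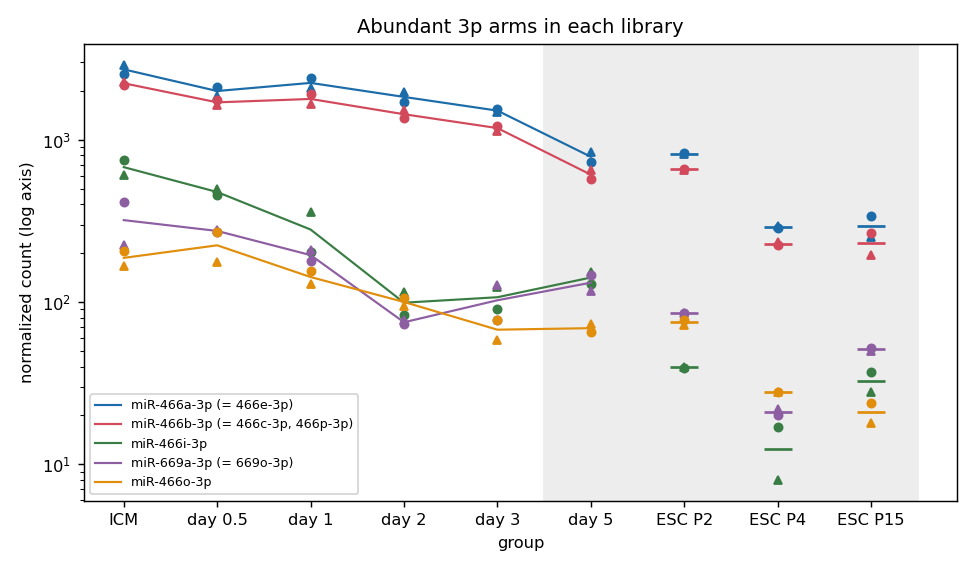
Normalized counts (y axis, log axis) of the 5 most abundant 3p rows in the 9 groups (x axis), with circles for replicate 1, triangles for replicate 2, lines through the group means of ICM to day 5 and dashes at the ESC means. The grey band marks the deeper libraries, and the ICM libraries of miR-466a-3p, miR-466b-3p and miR-466i-3p lie above all other libraries of the same row.

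The first comparison asked how ESC lines differ from the ICM they derive from. Among the 15 tested 3p rows, 8 fell and 0 rose in ESC (limma, adjusted p below 0.05 over all 795 rows tested; 0 rose at an unadjusted p below 0.05). Over all rows tested, 23.1% fell and 31.8% rose. The median log2 difference, ESC minus ICM, was -2.36 over the 3p rows and 0.02 over all rows tested. With the common floor 9 of 11 fell, against 31.6% of all rows, with a median of -2.60. In 9 of the 15 rows every ESC library lay below both ICM libraries, which held for 21.5% of all rows.

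miR-466a-3p fell from 2712.5 ± 260 (SD, n = 2) in ICM to 468 ± 273 (SD, n = 6) in ESC, a log2 difference of -2.72 (SE 0.13, limma adjusted p = 1.21e-08). For miR-466b-3p the values were 2227 ± 73.5 and 372.5 ± 221, with a log2 difference of -2.77 (SE 0.13, limma adjusted p = 8.69e-09). Most of the ESC spread lay between the codes, as P2 was higher than P4 and P15 for both rows.

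The change was larger for miR-466i-3p, from 677.5 ± 103 in ICM to 28.2 ± 13.2 in ESC, a log2 difference of -4.71 (SE 0.31, limma adjusted p = 2.29e-07) and of -4.33 at the common floor. miR-669a-3p changed by -2.73 (SE 0.26, limma adjusted p = 4.21e-06), and miR-466o-3p by -2.36 (SE 0.25, limma adjusted p = 8.94e-06). The 5 abundant rows thus all fell, with the chromosome 13 member by the most.

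The other 3 called rows were less abundant. miR-466h-3p was listed at 125 and 270 in ICM and at 0 to 11 in ESC, with a log2 difference of -4.99 (SE 1.27, limma adjusted p = 0.00570), which shrank to -2.71 at the common floor. miR-466f-3p was listed at 169 and 171 in ICM and at 3 to 22 in ESC, with a difference of -3.76 (SE 0.40, limma adjusted p = 9.20e-06) that became -2.60 at the floor. miR-467d-3p, the single tested 3p row of its family, was listed at 82 and 198 in ICM and at 13 to 44 in ESC, with -2.16 (SE 0.38, limma adjusted p = 4.35e-04). In all 3 the ESC libraries lay below both ICM libraries.

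miR-466m-3p, singled out after its values were seen, was listed at 125 and 189 in ICM and at 3 to 22 in ESC. Its log2 difference of -3.66 was not called (limma adjusted p = 0.0752), while at the common floor it fell by 2.46 (limma adjusted p = 2.41e-04). It was listed at 0 in 1 library of day 0.5 and 1 of day 1. Its values equalled those of miR-466f-3p in 8 of the 16 libraries where both were above 0.

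**Figure D3:**
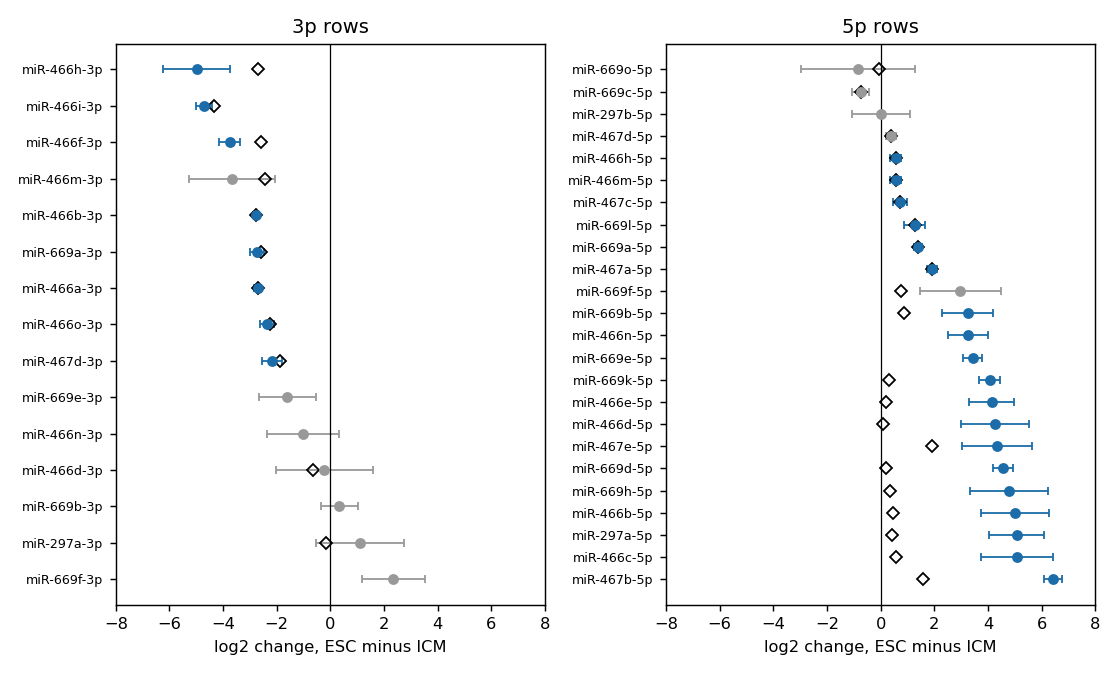
Log2 difference, ESC minus ICM (x axis), for each tested 3p row (left panel) and 5p row (right panel) of the families (y axis). Filled points show the values as deposited with bars of 1 SE, blue where the adjusted p is below 0.05 and grey where not. Open diamonds give the difference at the common floor. The 8 called 3p rows all lie left of 0, and the 19 called 5p rows lie right of 0.

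The first 3 days of culture can be compared with ICM within the shallow libraries. Depth still differed among these, with the ICM libraries at 110756 and 201789 reads in a range that ended at 370150. These comparisons share the ICM libraries with the one above. Averaged over days 0.5 to 3, 5 of the 15 rows fell and 0 rose (limma; 0 rose at an unadjusted p below 0.05), while 15.7% of all rows tested fell. The median log2 difference was -0.67 over the 3p rows and -0.30 over all rows tested. At the common floor 8 of 11 fell, against 22.2% of all rows, and their median of -0.67 stood beside one of -0.02 over all rows. In 6 rows every outgrowth library lay below both ICM libraries, against 9.56% of all rows.

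The largest called change was that of miR-466i-3p, -1.81 on the log2 scale (SE 0.30, limma adjusted p = 8.41e-04), followed by miR-466f-3p at -1.48 (SE 0.39, limma adjusted p = 0.0132) and miR-669a-3p at -1.11 (SE 0.26, limma adjusted p = 0.00672). For miR-669a-3p the call rested on 1 ICM library, and without ICM replicate 1 the difference was -0.68 (limma adjusted p = 0.0838). The 2 most abundant rows changed less, miR-466b-3p by -0.57 (SE 0.12, limma adjusted p = 0.00442) and miR-466a-3p by -0.53 (SE 0.12, limma adjusted p = 0.00744). Neither was called after quantile normalization (limma adjusted p = 0.0813 and 0.0553), nor was miR-466a-3p without ICM replicate 2 (-0.43, limma adjusted p = 0.0808). miR-466o-3p, at -0.63 (limma adjusted p = 0.0718), was not called as deposited and was called at the common floor (limma adjusted p = 0.0183).

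Step by step, few of the rows passed the test. From ICM to day 0.5, 0 of 15 were called by limma (2 lower and 0 higher at an unadjusted p below 0.05), with 10.7% of all rows called. From day 0.5 to day 1 miR-669b-3p alone rose, where 4.78% of all rows rose. It was listed at 20 and 14 at day 1 and at 0 in all other libraries before day 5, so it stands near the floor of these libraries. Only its day 1 libraries reached the minimum of the filter, so the row was tested because it was high in that group. The filter thus favoured its rise into day 1 and its fall to day 2, and no change is read from these calls. From day 1 to day 2, 3 rows fell against 6.79% of all rows: miR-669b-3p, miR-466i-3p at -1.45 (limma adjusted p = 0.0332) and miR-669a-3p at -1.36 (limma adjusted p = 0.0202). The last 2 calls were lost without either day 2 library or without day 1 replicate 2 (adjusted p = 0.0566 to 0.206) and under quantile normalization (0.0637 and 0.0786), and that of miR-466i-3p also without P2 replicate 1 or 2 (0.0533 and 0.0534). From day 2 to day 3, 0 of 15 were called by limma (1 higher and 0 lower at an unadjusted p below 0.05), and 3.77% of all rows were.

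Day 5 differs from day 3 in depth as well as in time. Here 2 rows fell and 0 rose, against 5.66% of all rows falling, with 1 row higher at an unadjusted p below 0.05. The change was -0.95 for miR-466a-3p (SE 0.16, limma adjusted p = 0.00143) and -0.95 for miR-466b-3p (SE 0.15, limma adjusted p = 0.00112), and the groups did not overlap for either. Non-overlap in that direction held for these 2 of the 15 rows and for 11.3% of all rows, so it does not mark out the members. More of the 15 rows had both day 5 libraries above both day 3 libraries, at a step where depth also changes. The median over the 15 rows was 0.41, opposite in sign to both calls, and over all rows tested 0.59. miR-466i-3p and miR-669a-3p were at 0.41 and 0.39 and not called.

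ESC and day 5 libraries both belong to the deeper set. All 15 rows had a log2 difference below 0, ESC minus day 5, and 8 passed the test, with a median of -1.28 beside -0.04 over all rows tested. Of all rows, 8.05% fell. At the common floor 9 of 11 fell, against 13.2% of all rows. In 7 rows every ESC library lay below both day 5 libraries, against 12.7% of all rows.

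The largest of the 5 abundant rows' changes was that of miR-466i-3p, at -2.46 (SE 0.31, limma adjusted p = 2.68e-04). For miR-669a-3p the change was -1.51 (SE 0.26, limma adjusted p = 0.00201). It was -0.93 for miR-466a-3p (SE 0.13, limma adjusted p = 4.80e-04) and -0.90 for miR-466b-3p (SE 0.13, limma adjusted p = 4.83e-04). For both rows at least 1 P2 library lay above a day 5 library, and all P4 and P15 libraries lay below both. miR-466o-3p showed the same arrangement and fell by 0.94 (SE 0.25, limma adjusted p = 0.0252). That call was lost without day 5 replicate 1 (adjusted p = 0.100), day 5 replicate 2 (adjusted p = 0.179) or P2 replicate 2 (adjusted p = 0.0591), and under quantile normalization (adjusted p = 0.274).

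Among the less abundant rows, miR-466h-3p averaged 135.5 ± 19.1 (SD, n = 2) at day 5, against 0 to 11 in ESC. It fell by 4.55 (SE 1.27, limma adjusted p = 0.0328). miR-466f-3p was listed at 64 and 93 at day 5 and fell by 2.63 (SE 0.40, limma adjusted p = 8.08e-04). miR-467d-3p was listed at 60 and 79 and fell by 1.28 (SE 0.38, limma adjusted p = 0.0414). All ESC libraries lay below both day 5 libraries in each of the 3. Over days 0.5 to 3 the libraries had ranged from 0 to 115 for miR-466h-3p, below both day 5 libraries, and from 33 to 106 for miR-466f-3p, a range that takes in both.

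The ESC codes differed from each other. In P4 against P2, 6 of the 15 rows were lower and 0 higher (limma, with 0 higher at an unadjusted p below 0.05), with a median of -1.53. Of all rows tested, 8.43% were lower. In 13 rows both P4 libraries lay below both P2 libraries, which held for 32.3% of all rows. The largest called difference was that of miR-669a-3p, at -1.99 (limma adjusted p = 0.00108). miR-466b-3p was at -1.52 (limma adjusted p = 3.90e-05), miR-466a-3p at -1.49 (limma adjusted p = 5.22e-05) and miR-466o-3p at -1.39 (limma adjusted p = 0.00895). The difference of miR-466o-3p was not called without P2 replicate 1 (limma adjusted p = 0.0688) or under quantile normalization (limma adjusted p = 0.106).

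The other 2 calls of that comparison stand near the floor. miR-466i-3p differed by -1.67 (limma adjusted p = 0.0103), and at the common floor by -0.52 (limma adjusted p = 0.216). It was not called without either P2 library or without P4 replicate 2 (adjusted p = 0.0629 to 0.0835). miR-466f-3p differed by -1.58 (limma adjusted p = 0.0467), and all its P2 and P4 values lie below the floor. At the floor 4 of 11 rows were called, against 18.5% of all rows.

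P15 was set against the average of P2 and P4. 3 rows were lower and 0 higher (limma; 0 higher at an unadjusted p below 0.05), against 10.1% of all rows lower. These were miR-466b-3p at -0.76 (limma adjusted p = 0.00153), miR-466a-3p at -0.74 (limma adjusted p = 0.00218) and miR-466o-3p at -1.11 (limma adjusted p = 0.0107). For the first 2 the P15 libraries overlapped with those of P4, and P2 was the code that stood apart. The difference of miR-466o-3p was not called without P15 replicate 2 (limma adjusted p = 0.107). Under quantile normalization neither miR-466a-3p (adjusted p = 0.0597) nor miR-466o-3p (adjusted p = 0.143) was called. The median over the 15 rows was 0.25, opposite in sign to the 3 calls.

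The 5p arms of the same families served as the nearest comparison, since both arms of a hairpin come from 1 precursor. There are 31 such entries with 28 distinct rows, of which 24 passed the filter. In ESC against ICM, 19 of the 24 rose and 0 fell, where 31.8% of all rows rose, and the median log2 difference was 3.25. Many of these were listed at 0 in the shallow ICM libraries. Of them, miR-466n-5p, miR-669d-5p and miR-669e-5p reached 10 in 2 libraries only through ESC, so the filter favoured their rise. At the common floor 17 of 21 rose, against 36.2% of all rows, with a median of 0.56. Rows tested there exceeded the floor in at least 2 libraries. For miR-466e-5p, miR-669d-5p, miR-669h-5p and miR-669k-5p these were only those of P2, so their rise was favoured too. Over days 0.5 to 3 against ICM, 3 of 24 rose and 1 fell, where 15% of all rows rose and 15.7% fell. At the floor 3 of 21 rose and 3 fell there, where 106 of all 589 rows rose and 131 fell. From day 3 to day 5, a step at which depth also changes, 11 rose and 0 fell, where 12.1% of all rows rose. At the floor 4 of 21 rose and 0 fell there, against 9.68% of all rows rising.

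Among the deep libraries, whose depths are known only as bounds, 3 of the 24 5p rows fell and 0 rose in ESC against day 5 (limma, with 4 higher at an unadjusted p below 0.05), where 8.05% of all rows fell and 5.91% rose. At the floor 10 of 21 rose and 3 fell, where 17.3% of all rows rose and 13.2% fell. In P4 against P2, 8 of 24 were lower and 0 higher (limma, with 0 higher at an unadjusted p below 0.05), where 8.43% of all rows were lower. At the floor 19 of 21 were lower, against 18.5% of all rows. Among both the 10 and the 19 are miR-466e-5p, miR-669d-5p, miR-669h-5p and miR-669k-5p, which exceeded the floor only in P2. They were tested there because P2 was high, so the filter favoured those calls.

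Summed over distinct rows, the 3p arms held 1.12 ± 0.027% (SD, n = 2) of all normalized counts in ICM, 0.742 ± 0.152% at day 0.5, 0.738 ± 0.037% at day 1, 0.467 ± 0.029% at day 2, 0.416 ± 0.099% at day 3 and 0.297 ± 0.0049% at day 5. In ESC they held 0.231 ± 0.0063% in P2, 0.0606 ± 0.0128% in P4 and 0.0620 ± 0.0136% in P15. The 5p arms held 0.275% in ICM, between 0.218% and 0.262% over days 0.5 to 3, 0.557% at day 5, 0.893% in P2, 0.207% in P4 and 0.237% in P15. The 3p sum was thus highest in ICM and the 5p sum in P2.

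The 3p sum was 4.08 ± 0.169 (SD, n = 2) times the 5p sum in ICM, 3.40 ± 0.084 times at day 0.5, 3.14 ± 0.719 times at day 1, 1.78 ± 0.179 times at day 2 and 1.64 ± 0.169 times at day 3. It was 0.533 ± 0.0069 times the 5p sum at day 5 and 0.259 ± 0.014, 0.292 ± 0.0029 and 0.261 ± 0.040 times in P2, P4 and P15. The 3p sum thus exceeded the 5p sum in every library up to day 3 and in none from day 5 on. Depth changes at the same step, so depth and stage cannot be told apart there. In the libraries of days 0.5 to 3, miR-466a-3p and miR-466b-3p held 71.2% to 88.9% of the 3p sum. The other 3p rows alone did not exceed the 5p sum in any of these libraries, and did so in both ICM libraries. The 3p lead over days 0.5 to 3 thus rests on these 2 rows, which are not independent. The 6 ESC libraries had ratios of 0.232 to 0.294, although both sums were higher in P2 than in P4 and P15.

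**Figure D4:**
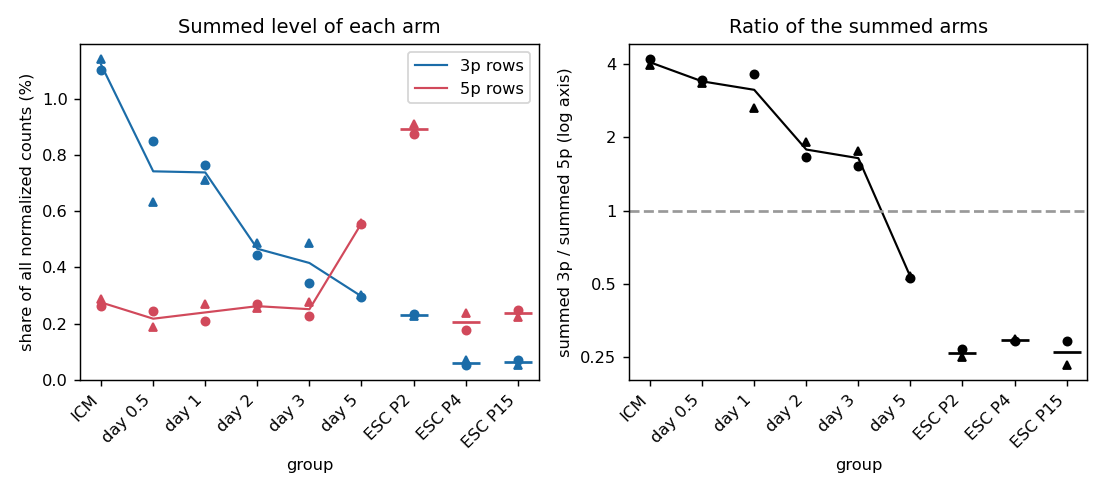
Left, share of all normalized counts held by the summed distinct 3p rows and 5p rows (y axis, percent) in the 9 groups (x axis). Right, the 3p sum divided by the 5p sum (y axis, log axis) with a dashed line at 1, circles for replicate 1, triangles for replicate 2, lines through the means of ICM to day 5 and dashes at the ESC means.

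The arms were also compared hairpin by hairpin, as log2 of (3p + 1)/(5p + 1). Both arms passed the filter for 193 hairpins, 16 of them with a 3p arm among the members. Some of the 16 share a 3p row: miR-466b with miR-466c, miR-297a with miR-297b, and miR-669a with miR-669o. The hairpins are therefore not independent observations. In ESC against ICM the ratio of 9 of the 16 moved toward the 5p arm and that of 0 toward the 3p arm, with a median change of -4.25. Of all 193 hairpins, 21.2% moved toward 5p, with a median of -0.50. The 5p arms of miR-466n and miR-669e, both among the 9, passed the filter only through ESC, which favoured their calls. At the floor this held for the 5p arm of miR-466e. At the common floor 10 of 11 moved toward 5p, against 39.5% of all, with a median of -2.91. Over days 0.5 to 3 against ICM, 0 of 16 were called by limma (4 toward 5p and 0 toward 3p at an unadjusted p below 0.05; 10.9% of all called), and 8 of 11 at the floor moved toward 5p, against 24% of all. In ESC against day 5, 0 of 16 were called (2 toward 5p and 0 toward 3p at an unadjusted p below 0.05; 1.55% of all called), and 8 of 11 at the floor moved toward 5p, against 15.5% of all. The 9 calls and each floor count include both miR-466b and miR-466c. Each floor count also includes both miR-669a and miR-669o, so these counts hold fewer distinct 3p rows.

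miR-669a showed both arms well above the floor in ICM. Its 5p arm, which shares its row with miR-669p-5p, was listed at 337 and 335 in ICM, 632 and 714 at day 5, 1730 and 1834 in P2, 556 and 490 in P4, and 785 and 716 in P15. The 5p arm rose by 1.40 (SE 0.15, limma adjusted p = 1.03e-05) in ESC against ICM while the 3p arm fell by 2.73. The log2 arm ratio was -0.14 in ICM, 0.13 at day 0.5, -0.68 at day 1 and -2.37 at day 2. It was -4.36, -4.57 and -3.85 in P2, P4 and P15, a change of -4.12 (SE 0.47, limma adjusted p = 1.03e-04).

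miR-467d and miR-466h also had both arms above 0 in ICM. The 5p arm of miR-467d was listed at 250 and 226 in ICM, 421 and 436 in P2, and averaged 320 ± 89.9 (SD, n = 6) over the ESC libraries, a log2 difference of 0.38 that was not called (limma adjusted p = 0.102). The arm ratio of miR-467d changed by -2.55 (SE 0.55, limma adjusted p = 0.00444). The 5p arm of miR-466h was listed at 103 and 93 in ICM and averaged 151 ± 51.0 (SD, n = 6) over the ESC libraries. The row rose by 0.56 (SE 0.21, limma adjusted p = 0.0424). In all ICM, day 5 and ESC libraries its values equalled those of the row of miR-466m-5p and miR-669m-5p. The reads therefore cannot be assigned to the miR-466h hairpin alone. The arm ratio of miR-466h changed by -5.55 (SE 1.31, limma adjusted p = 0.00731), or by -3.27 at the floor. In miR-467d and miR-466h, all 6 ESC ratios lay below both ICM ratios. The ratio of miR-466m changed by -4.22 and was not called as deposited (limma adjusted p = 0.0721). At the floor it changed by -3.01 (limma adjusted p = 8.94e-05).

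For the most abundant 3p rows the 5p partner was listed at 0 in both ICM libraries. The ratio changed by -7.78 for miR-466b, -7.86 for miR-466c, -6.86 for miR-466e and -7.38 for miR-466o as deposited, and by -3.24, -3.35, -2.91 and -2.71 at the common floor. The deposited size therefore depends on the value that stands for 0, and the floor value is the smaller one in each. miR-466b and miR-466c share their 3p row and miR-466b and miR-466o their 5p row, so these 4 are not independent observations.

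**Figure D5:**
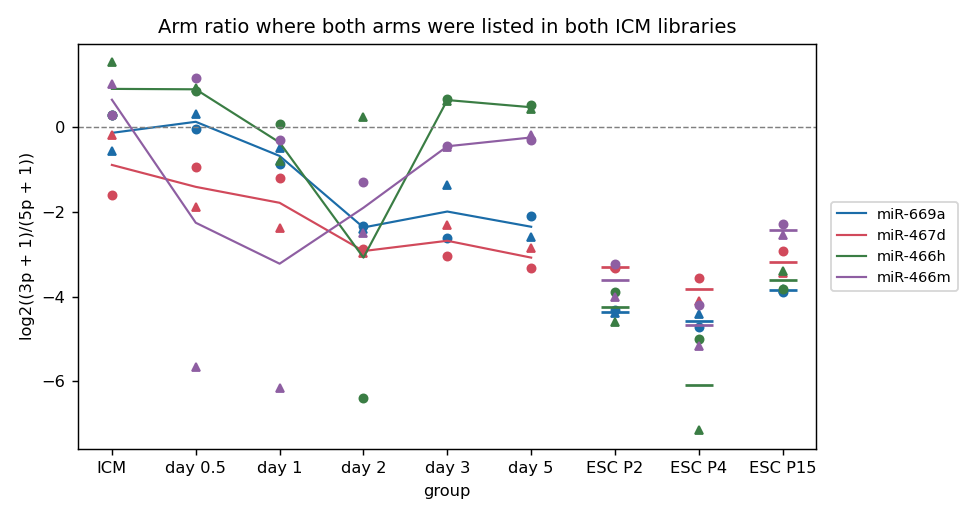
Log2 arm ratio, 3p over 5p, each with 1 added (y axis), for 4 hairpins with both arms above 0 in both ICM libraries, in the 9 groups (x axis), with circles for replicate 1, triangles for replicate 2, lines through the means of ICM to day 5 and dashes at the ESC means. Values below 0 mean more of the 5p arm, and all ESC libraries lie below the ICM libraries of the same hairpin. The 5p values of miR-466h and miR-466m are equal in all ICM, day 5 and ESC libraries, so these hairpins are not independent observations.

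Other microRNA groups moved between the same libraries. The pluripotency cluster miR-290 to miR-295 held 15.7% to 17.8% of counts in ICM and 6.45% to 14.5% over days 0.5 to 3. It held 7.91% to 11.1% at day 5 and 9.0% to 14.9% in ESC. The cluster was thus present in every library, and the identity of the cells was not tested. The 11 rows of microRNAs known from mesenchyme summed to 1.32% to 1.41% in ICM, 1.12% to 2.29% over days 0.5 to 3, 0.382% to 0.395% at day 5 and 0.253% to 0.385% in ESC, with 5 rows at 0 in ICM and 2 in ESC. The 9 rows of miR-302 and miR-367, a pluripotency cluster, summed to 0.00448% to 0.00607% in ICM with 6 rows at 0, 0.00611% to 0.129% over days 0.5 to 3, 0.208% to 0.290% at day 5 and 0.0138% to 0.493% in ESC. The 7 blood rows summed to 0.374% to 0.469% in ICM and 0.0849% to 0.272% in ESC, and the 5 endoderm rows to 0.308% to 0.313% and 0.118% to 0.317%. The 6 neural rows summed to 0.0830% to 0.103% in ICM and 0.0472% to 0.0686% in ESC. The sums of miR-290 to miR-295 and of the mesenchyme, blood and neural rows were higher in ICM than in ESC, as were the 3p arms. The miR-302 and miR-367 sum was lower. Their part in the result was not tested. Fewer cells of a type and less RNA per cell cannot be told apart in these bulk libraries.

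The rows outside the families whose group means followed miR-466a-3p most closely were miR-744-5p (Pearson r = 0.921), miR-7220-3p (r = 0.907) and let-7d-3p (r = 0.903), over 9 group means of log2(value + 1) and among 261 rows with a mean of at least 100. Despite its r, miR-7220-3p was highest at day 3, with a mean of 606 against 111 in ICM, where miR-466a-3p was highest in ICM. The 9 points share the libraries and their depth, and the likeness is a description.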

How the data were processed

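Mature microRNAs were measured by small-RNA sequencing (PureLink miRNA kit, TruSeq Small RNA kit, Illumina GAIIx) in 18 libraries, 2 in each of 9 groups. The deposited table holds a score per microRNA and library, a normalized count that the authors rounded to a whole number. Per the submitters' processing notes, cutadapt, DESeq2 1.30.0 and mm10 were used. No aligner, counting step, annotation or tool behind the deposited values is given in the sources used here.

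Columns were joined to libraries by description, and those of day 0 by title. Rows identical in all 18 columns entered once. Rows of at least 10 in at least 2 libraries were tested, 795 in all, on log2(value + 1). All 9 group means entered 1 limma fit (version 3.58.1 under R 4.3.3, lmFit, eBayes with trend and robust, 9 residual degrees of freedom, no replicate block), with Benjamini-Hochberg adjustment over all rows tested and a threshold of 0.05. Fold changes are on the log2(value + 1) scale, where the size for a row listed at 0 in shallow libraries depends on the value that stands for 0. The fit was tested on simulated data. Each comparison was repeated with values below the common floor of 27.2 raised to it, which left 589 rows. Alternatives were another pseudocount (10), a filter at 50, no filter, rescaled totals, quantile normalization, a replicate block and leaving out each library. Arm ratios were tested in the same way.

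The spacing of values below 1000 gave the depth of the 10 libraries of ICM to day 3, with 99.1% to 100% of values within 0.5 of it. There 1 read is worth 1.73 to 5.44 normalized counts. In the other 8 libraries only bounds could be set.

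Rows with a mean of at least 100 were described in every library, and others were named where called, as the 3 largest changes each way. The members, the comparisons and the lists were chosen with earlier results of these data known. Replicates correlated at r = 0.769 to 0.988 on the log2 scale and differed by more than sampling noise, so no library was counted as a duplicate. No library was left out. Python 3.11.15 was used for counts and figures.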

Additional observations from a re-analysis of the deposited data

How the results depend on the processing

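Among 26 called differences of the 5 abundant rows, 676 results were obtained over all settings, and 29 of them were no longer called and 0 reversed. Counts of called members that moved by over 1.5 times were those over days 0.5 to 3 against ICM (5, with 8 at the common floor, 2 after quantile normalization and 8 without day 0.5 replicate 1), day 1 against day 0.5 (1, with 0 under a filter at 50 and 0 without day 1 replicate 1) and day 2 against day 1 (3, with 1 after quantile normalization and 1 without day 1 replicate 2 or day 2 replicate 1). The count for ESC against day 5 dropped from 8 to 5 without day 5 replicate 2 or P2 replicate 2, and for P4 against P2 from 6 to 3 without P2 replicate 1. Leaving out 1 library at a time gave 8 to 9 called members in ESC against ICM, 4 to 8 over days 0.5 to 3, 2 to 3 at day 5 against day 3, 5 to 9 in ESC against day 5, 2 to 4 in P15 against P2 and P4, 3 to 7 in P4 against P2, 0 to 1 at day 0.5 against ICM (1 without ICM replicate 2 or day 0.5 replicate 1), 0 to 1 at day 1 against day 0.5, 1 to 3 at day 2 against day 1 and 0 to 1 at day 3 against day 2 (1 without day 2 replicate 2). Where 1 library of a group was left, it was assumed to vary like the other groups. For the arm ratio, leaving out 1 library gave 8 to 10 calls in ESC against ICM, 0 to 2 over days 0.5 to 3 and 0 to 1 in ESC against day 5. The common floor raised the arm-ratio count from 0 to 8 over days 0.5 to 3 and from 0 to 8 in ESC against day 5, where a pseudocount of 10 gave 2, a filter at 50 gave 2 and no filter gave 1. The cause of these shifts was not tested.

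Summing all 31 rows in place of the 25 distinct ones raised the 3p share to 2.35% in ICM, 1.57% at day 0.5, 1.63% at day 1, 1.07% at day 2, 0.919% at day 3, 0.592% at day 5, 0.513% in P2, 0.136% in P4 and 0.131% in P15. Setting values below the floor to 0 gave 0.286% at day 5 and 0.218% in P2. Rescaling the libraries to the same total moved the median of all rows in ESC against ICM from 0.02 to -0.41, and that of the 15 members from -2.36 to -3.06, with 9 lower. In P15 against P2 and P4, quantile normalization left 1 member lower and 1 higher. The replicate numbers did not pair the libraries: over the 36 pairs of groups the correlation of their replicate differences ran from -0.355 to 0.243, with 3 above 0.1. With the replicate number as a block, 8 members were called in ESC against ICM, 5 over days 0.5 to 3, 7 in ESC against day 5 and 5 in P4 against P2, and the call of miR-466i-3p at day 2 against day 1 was lost (limma adjusted p = 0.0512). Depth limits what can be read of the 10 untested members and of any value under 27.2 in the shallow libraries.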

Other observations

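Of the 6 entries of the 4 families that carry no arm in their name, miR-466g, singled out after its values were seen, was listed at 696 and 816 in ICM, 582 and 909 at day 0.5, 399 and 612 at day 1, 211 and 237 at day 2, 394 and 237 at day 3, and 180 and 220 at day 5. In ESC it was listed at 152 and 159 in P2, 103 and 74 in P4, and 76 and 74 in P15. All ESC libraries lay below all earlier ones, and the row fell by 2.89 in ESC against ICM (SE 0.25, limma adjusted p = 2.10e-06). miR-467h was listed at 38 and 81 in ICM and at 188 and 209 in P2, 31 and 57 in P4, and 45 and 35 in P15. Its P2 libraries stood above all others, and it was not called in ESC against ICM (0.32, limma adjusted p = 0.876). miR-466k was called higher in that comparison (2.31, limma adjusted p = 2.77e-04). It was listed at 0 in both ICM libraries and at 2 to 13 in ESC, below the common floor. Which arm each of these entries represents was not analysed here.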
